A study of Mus musculus with 55 samples.

Results

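The expression of 8 genes of branched-chain amino acid breakdown was followed in mouse hearts that lacked or carried the nuclear receptor PPARα. The genes were Bcat2, Bckdha, Bckdhb, Dbt, Bckdk, Ppm1k, Ivd and Hibadh, each measured by the probe sets annotated to its symbol and to no other. The 8 genes are 8 of 18193 genes with such a probe set and 8 of 8237 genes bright enough to be tested, so that all members passed the filter. A gene was represented by its probe set of highest mean over the 55 arrays, and a gene counted as bright enough with 3 or more arrays above 20 on the linear scale. Each array held the RNA of 1 whole heart, hybridised to an Affymetrix GeneChip, and the deposited values are log2 signals. The KO mice were PPARα-/- (129S4/SvJae) and the WT mice 129S1/SvImJ, all male, so that the receptor and the substrain cannot be told apart in any comparison of the genotypes. Their age is given both as 9 to 12 weeks and as 2 to 6 months.

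All mice had eaten a modified AIN76A diet, with olive oil in place of corn oil, for 2 weeks. They were fasted for 4 h and given 400 µL of a substance into the stomach, and hearts were taken 6 h later. The 4 oils were synthetic triglycerides, each with 3 copies of a single fatty acid. These were triolein (oleic acid, 18 carbons and 1 double bond), trilinolein (linoleic acid, 18 and 2), trilinolenin (linolenic acid, 18 and 3) and tridocosahexaenoin (docosahexaenoic acid, 22 and 6). Wy14643, a synthetic PPARα agonist, was given as a suspension of 10 mg/mL in 0.5% carboxymethyl cellulose. Carboxymethyl cellulose alone was the control gavage, and another label of the control samples reads none for the treatment. KO hearts numbered 5 in each of the 6 groups. WT hearts numbered 4 after triolein, 5 after trilinolein, 4 after trilinolenin, 5 after tridocosahexaenoin, 4 after Wy14643 and 3 after the control gavage.

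Leucine, isoleucine and valine are broken down mainly in mitochondria, and muscle and heart are major sites of the first step. Bcat2, the mitochondrial branched-chain aminotransferase, moves the amino group to 2-oxoglutarate in a reversible reaction and leaves a branched-chain keto acid. The branched-chain keto acid dehydrogenase complex then commits the carbon skeleton to oxidation. Bckdha and Bckdhb encode the alpha and beta subunits of its decarboxylase, and Dbt encodes the transacylase core. Bckdk is the kinase that phosphorylates the alpha subunit and shuts the complex down, and Ppm1k is the mitochondrial phosphatase that reverses this. After the complex the routes part: Ivd, isovaleryl-CoA dehydrogenase, acts on the leucine route, and Hibadh, 3-hydroxyisobutyrate dehydrogenase, on the valine route. PPARα is a receptor for fatty acids that drives fatty acid oxidation genes in heart and liver.

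The receptor's own transcript was examined first. Ppara averaged between 7.23 and 7.45 in the 6 KO groups, against 7.74 to 8.37 in the 6 WT groups, on the log2 scale. Averaged over the gavages it was lower in KO hearts by −0.77 ± 0.05 (log2, SE; limma adjusted p = 2.98e-18), so the transcript was reduced but still detected, and whether the probes lie in the deleted stretch was not tested. Array medians lay between 2.554 and 2.613, and no 2 arrays shared more than 0.208% of their values. That check can find copied data but not repeated arrays of 1 heart. Every array was counted as a separate heart. The labels number replicates but do not describe litters or days, and p-values measure only the spread between these hearts. The 7 cardiomyocyte markers summed to between 114600 and 122900 on the linear scale in KO hearts and between 112800 and 120200 in WT hearts. The liver markers Alb, Apoa1 and Ttr stayed under the minimum of 20 on all arrays.

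Between genotypes, the mitochondrial transaminase and the decarboxylase beta subunit stood higher in KO hearts. Averaged over the 6 gavages, Bckdhb was 0.33 ± 0.02 higher in KO hearts on the log2 scale, a fold of 1.25 (SE; adjusted p = 3.13e-15), and Bcat2 was 0.25 ± 0.02 higher, a fold of 1.19 (adjusted p = 1.43e-11). Dbt, the transacylase core, was 0.17 ± 0.04 higher, a fold of 1.13 (adjusted p = 2.92e-04). Ivd was 0.08 ± 0.03 higher (adjusted p = 0.0396), and the phosphatase Ppm1k was lower by −0.09 ± 0.03 (adjusted p = 0.0172). All p-values are limma's with Benjamini-Hochberg adjustment over the 8237 tested genes, and the threshold for a call was 0.05. By that rule 5 of 8 members were called, 4 higher and 1 lower. This has to be read against 39% of all tested genes called in this comparison, 22.8% higher and 16.1% lower in KO hearts. The median difference of the 8 members was 0.07, against 0.02 over all tested genes. In whole hearts, fewer cells of a type and less RNA per cell cannot be told apart.

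The separation of the genotypes was widest for Bckdhb. The values of 30 KO hearts had a lowest, median and highest of 9.93, 10.05 and 10.24, against 9.46, 9.75 and 9.93 in 25 WT hearts. Every KO heart lay above every WT heart, although only just: the lowest KO value was 9.9334, in a heart given Wy14643, and the highest WT value was 9.9327, in a heart given trilinolenin. The next WT heart lay at 9.85. Among the 8 members only Bckdhb had this order, which 6 of 8237 genes (0.0728%) showed. For Bcat2 the lowest, median and highest values were 9.63, 9.82 and 9.97 in KO hearts and 9.38, 9.58 and 9.74 in WT hearts, and 26 of 30 KO hearts lay above every WT heart. Dbt spanned 8.24 to 8.95 with a median of 8.67 in KO hearts and 8.15 to 8.78 with a median of 8.51 in WT hearts, so the genotypes overlapped widely.

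**Figure D1:**
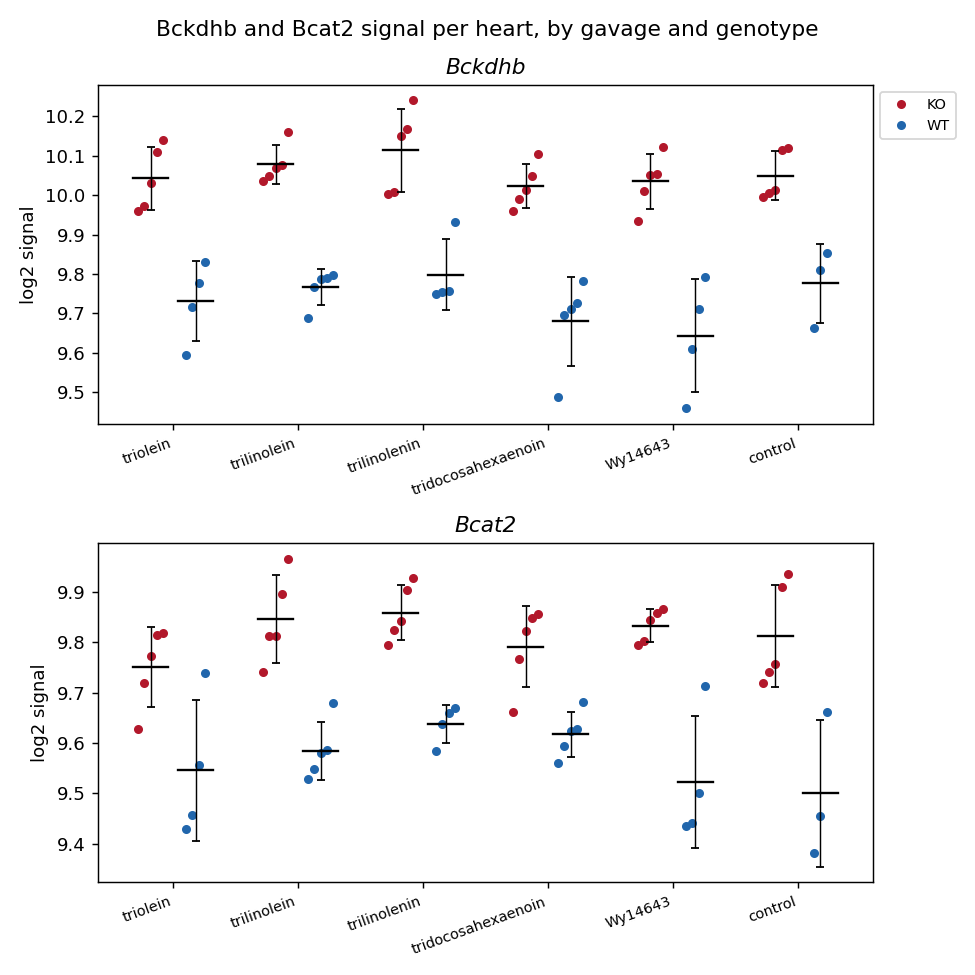
Log2 signal of Bckdhb and Bcat2 in every heart by gavage, with KO hearts (n = 30) left of WT hearts (n = 25) for each gavage. Each point is 1 heart, each line a group mean and each bar a standard deviation. Bckdhb is the only gene of the 8 whose KO hearts all lie above all WT hearts, by 0.0007 between the lowest KO and the highest WT heart.

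Because Bcat2 and Bckdhb carried the largest genotype differences of the 8, the 250 bases before a start site of each are shown, to set the promoters of the 2 genes beside each other. They are RefSeq sequences of the GRCm38.p6 build, read 5′ to 3′ on the plus strand. This reference is the C57BL/6J strain, not a substrain of the study. Capitals mark matches, on either strand, to AGGTCA (the half-site that nuclear receptors bind), GGGCGG (the GC box) and CCAAT.
Bckdhb, chr9:83924887-83925136: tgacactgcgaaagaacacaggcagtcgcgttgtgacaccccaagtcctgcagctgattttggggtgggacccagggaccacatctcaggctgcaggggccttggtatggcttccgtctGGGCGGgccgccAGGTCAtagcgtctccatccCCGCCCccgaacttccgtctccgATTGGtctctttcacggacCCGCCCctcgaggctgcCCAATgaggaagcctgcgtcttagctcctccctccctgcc
Bcat2, chr7:45569903-45570152: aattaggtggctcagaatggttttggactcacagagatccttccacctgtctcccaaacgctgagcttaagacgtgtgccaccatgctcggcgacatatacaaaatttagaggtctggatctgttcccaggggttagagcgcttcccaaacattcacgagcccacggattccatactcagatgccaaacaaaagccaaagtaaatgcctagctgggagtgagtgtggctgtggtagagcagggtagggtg
The Bckdhb promoter held 1 half-site, which starts 119 bases before the start site, with 3 GC boxes and 2 CCAAT matches, and 63.2% of its bases were G or C. The Bcat2 promoter held none of these motifs and was 50.4% G or C. The table gives each gene a second start site, and neither held any of the 3 motifs: 36.4% of the bases were G or C at that of Bckdhb and 50.4% at that of Bcat2. The 2 genes thus differ in these letters at the first Bckdhb start only. Of 32851 promoters of this length, 14% held AGGTCA, 32.7% GGGCGG and 33.8% CCAAT. The paired element that PPARα and its partner RXR bind, the half-site repeated in the same direction after 1 further base of any kind, was found in 0.0335% of all promoters and in none of 9 promoters of the 7 members in the table. These matches describe letters in these windows and say nothing of binding. Among the other members, Ppm1k also held a half-site. Dbt had no entry.

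Separate comparisons within each gavage used different KO and WT hearts each time. In control hearts Bckdhb had 10.11, 10.12, 10.01, 10.00 and 10.00 in the 5 KO hearts, against 9.85, 9.81 and 9.66 in the 3 WT hearts. Bcat2 had 9.94, 9.91, 9.74, 9.72 and 9.76 in KO control hearts, against 9.66, 9.46 and 9.38 in WT control hearts. For both genes every KO control heart lay above every WT control heart. Bcat2 was higher by 0.31 ± 0.07 (adjusted p = 0.00162) and Bckdhb by 0.27 ± 0.07 (adjusted p = 0.00818), so that 2 of 8 members were called where 3.62% of tested genes were. Both calls rest on WT control replicate 3: without it Bcat2 differed by 0.25 (adjusted p = 0.0518) and Bckdhb by 0.22 (adjusted p = 0.142). In a fit of the control hearts alone the adjusted p was 0.129 for Bcat2 and 0.0986 for Bckdhb.

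The order was repeated after each of the other gavages. After Wy14643 Bckdhb had 10.05, 10.12, 10.05, 10.01 and 9.93 in KO hearts, against 9.46, 9.79, 9.61 and 9.71 in WT hearts, a difference of 0.39 ± 0.06 (adjusted p = 5.59e-06). Over the 6 gavages the difference in Bckdhb ranged from 0.27 to 0.39, and KO and WT hearts did not overlap in any of the 6. Among tested genes 5.37% had every KO heart above every WT heart after the control gavage, 5.61% after triolein, 4.7% after trilinolein, 4.72% after trilinolenin, 3.46% after tridocosahexaenoin and 5.92% after Wy14643. The difference in Bcat2 ranged from 0.17 to 0.31, and KO and WT hearts overlapped after triolein and after tridocosahexaenoin. Both genes were called, and higher in KO hearts, in all 6 gavages, as were 0.631% of tested genes. The Bckdhb call after each of the 4 oils and Wy14643 held without any 1 heart. The Bcat2 call did so after trilinolein and Wy14643. After tridocosahexaenoin, where Bcat2 differed by 0.17 ± 0.06 (adjusted p = 0.0439), it was lost without any 1 of 8 of the 10 hearts, with adjusted p-values of 0.0544 to 0.11. After triolein (0.21 ± 0.06, adjusted p = 0.0242) it was lost without WT triolein replicate 1 or 3 or KO triolein replicate 1, 4 or 5, with adjusted p-values of 0.0507 to 0.12, and after trilinolenin (0.22 ± 0.06, adjusted p = 0.0124) without WT trilinolenin replicate 3 (adjusted p = 0.0546).

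**Figure D2:**
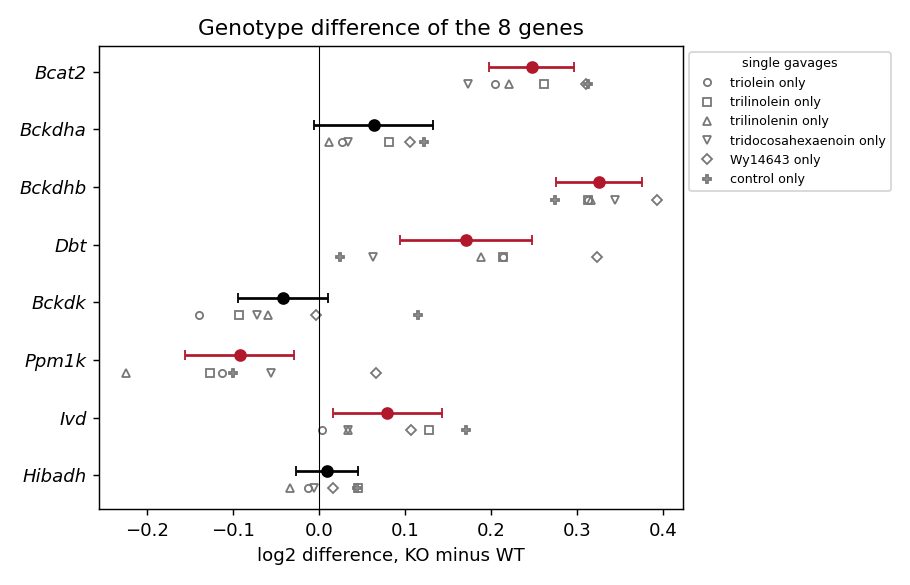
KO minus WT difference on the log2 scale for each of the 8 genes, averaged over 6 gavages with its 95% confidence interval. Red averages passed the test and black averages did not. Open grey markers give the single gavages, without an interval or a mark for a call. Bckdhb lies between 0.27 and 0.39 and Bcat2 between 0.17 and 0.31 in the 6 gavages, and the other genes lie nearer to 0 in most of them.

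Of the other members of the complex, Bckdha was not called in any gavage. Its KO mean was above its WT mean in 6 of 6 gavages, by 0.01 to 0.12, and the average difference was 0.06 ± 0.03. Dbt was called after Wy14643 only. It had 8.79, 8.80, 8.67, 8.37 and 8.58 in KO hearts given Wy14643, against 8.34, 8.36, 8.34 and 8.23 in WT hearts, and the groups did not overlap. The difference was 0.32 ± 0.09 (adjusted p = 0.0187). It missed the threshold without WT Wy14643 replicate 4 (adjusted p = 0.0687), KO Wy14643 replicate 1 (0.0577) or KO Wy14643 replicate 2 (0.0666), and in a fit of these 9 hearts alone (0.06). In control hearts Dbt differed by 0.02 ± 0.10 between genotypes. With Dbt, 3 of 8 members were called after Wy14643, and 2 of 8, Bcat2 and Bckdhb, after each of the oils. Over all tested genes 9.28% were called after Wy14643, 7.93% after triolein, 9.63% after trilinolein, 9.54% after trilinolenin and 9.57% after tridocosahexaenoin.

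The kinase and the phosphatase that set the activity of the complex had small average differences between genotypes. Bckdk had a lowest, median and highest value of 7.82, 8.12 and 8.30 in KO hearts and 7.87, 8.17 and 8.31 in WT hearts, a difference of −0.04 ± 0.03 that was not called. Ppm1k had 8.62, 8.85 and 9.03 in KO hearts and 8.59, 8.92 and 9.14 in WT hearts, and its KO mean was below its WT mean in 5 of 6 gavages. The range of the 6 differences in Ppm1k was −0.22, after trilinolenin (adjusted p = 0.0572), to 0.07. The trilinolenin difference in Ppm1k passed the threshold under 4 of the alternatives, with a filter at 100 (adjusted p = 0.0459), quantile normalisation again (0.0434), a trended prior (0.0484) and array weights (0.046). Its call on the average rests on the probe set chosen: the second Ppm1k probe set gave 0.01 ± 0.04, and the mean of both gave −0.04 (adjusted p = 0.278). Without the 3 arrays of lowest weight the adjusted p of Ppm1k was 0.0612. The second probe set of Bckdk did not exceed the minimum on any array.

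Downstream of the complex, Ivd and Hibadh also stayed close. Ivd had a lowest, median and highest value of 9.71, 10.08 and 10.27 in KO hearts and 9.73, 10.02 and 10.27 in WT hearts. Its KO mean was above its WT mean in 6 of 6 gavages, but it was called on the average alone, and that call was lost without any 1 of 17 of the 55 arrays, with adjusted p-values up to 0.0899. In KO hearts these were control replicate 1, trilinolein replicate 4, trilinolenin replicates 2, 4 and 5, tridocosahexaenoin replicate 3 and Wy14643 replicates 1 and 2. In WT hearts they were control replicates 2 and 3, triolein replicates 1 and 3, trilinolein replicate 1, trilinolenin replicates 1 and 3, tridocosahexaenoin replicate 3 and Wy14643 replicate 4. The adjusted p for Ivd was 0.0583 with the mean of its probe sets, 0.0754 without a filter on dim genes and 0.0638 without the 3 arrays of lowest weight. Hibadh had 11.23, 11.40 and 11.54 in KO hearts and 11.32, 11.39 and 11.45 in WT hearts, a difference of 0.01 ± 0.02 that was not called. The KO mean of Hibadh was higher in 3 of 6 gavages.

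Each of the 8 genes varied less among hearts of a group than the median tested gene. The standard deviation within groups was lowest for Hibadh (0.0557) and highest for Dbt (0.139), all on the log2 scale. Over all tested genes its median was 0.167, with quartiles of 0.118 and 0.221. The 8 genes were also bright, the dimmest, Bckdk, above 68.9% of tested genes, and the part of brightness was not tested. Genotype accounted for 77.5% of the variance of Bckdhb over the 55 hearts and for 65.9% of that of Bcat2. For Dbt it was 16.9%, with 38.1% for the gavage. The gavage took between 18.3% and 29.2% for Bckdha, Bckdk, Ppm1k, Ivd and Hibadh, and between 57.7% and 74.5% of their variance lay within groups. The group means of Dbt spanned 0.52 on the log2 scale, from 8.32 in WT hearts given Wy14643 to 8.84 in KO hearts given trilinolenin, the widest span of the 8. Those of Hibadh spanned 0.09, the narrowest.

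Among the gavages, Dbt was the only member called against the control gavage. In KO hearts Dbt had 8.90, 8.84, 8.60, 8.87 and 8.92 after trilinolein and 8.77, 8.95, 8.78, 8.88 and 8.82 after trilinolenin, against 8.63, 8.64, 8.59, 8.24 and 8.29 after the control gavage. The trilinolenin hearts all lay above the control hearts, without overlap, as in 8.57% of tested genes, and the trilinolein hearts overlapped them through 1 heart at 8.60. Dbt rose by 0.35 ± 0.09 after trilinolein, a fold of 1.27 (95% confidence interval of the log2 difference 0.17 to 0.53, adjusted p = 0.0157). After trilinolenin it rose by 0.36 ± 0.09, a fold of 1.28 (0.18 to 0.54, adjusted p = 0.0044). That is 1 of 8 members after each oil, where 4.32% of tested genes were called after trilinolein and 11.9% after trilinolenin. The trilinolenin call held without any 1 heart. The trilinolein call was lost without KO control replicate 4 (0.29, adjusted p = 0.0684) or KO trilinolein replicate 4 (0.34, adjusted p = 0.0594), and in a fit of these 2 groups alone (adjusted p = 0.0861). Both comparisons share the KO control hearts. Of 5 fibroblast markers, Col1a1 and Col3a1 were lower after both oils in KO hearts, by −0.78 and −0.82 after trilinolein and by −0.72 and −0.87 after trilinolenin. The fibroblast markers summed to between 4996 and 5442 after trilinolein and between 5060 and 5669 after trilinolenin, against 5162 to 5653 in KO control hearts. After trilinolenin 1 of 5 endothelial markers, Kdr, was also lower, by −0.61 ± 0.20 (adjusted p = 0.0393), with sums of 1092 to 1117 against 1049 to 1345 in KO control hearts. Of 2 tested adipocyte markers Fabp4 was higher after trilinolenin, by 0.28 ± 0.07 (adjusted p = 0.00459). The other, Cidea, was not called, at −0.07 ± 0.11 (adjusted p = 0.743), and Ucp1 and Adipoq were too dim to be tested. The sums of all 4 were 12990 to 16790 after trilinolenin against 11520 to 12800 in KO control hearts. With 1 of 2 tested markers called, a difference in adipocyte content cannot be read from these sums. The part of these markers in the Dbt result was not tested.

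After the other gavages Dbt in KO hearts differed less from the control gavage. The KO mean was 8.55 ± 0.10 after triolein, 8.58 ± 0.22 after tridocosahexaenoin and 8.64 ± 0.18 after Wy14643, against 8.48 ± 0.20 after the control gavage (SD, n = 5 each). None of the 3 differences was called, where 1.15% of tested genes were after triolein, 3.54% after tridocosahexaenoin and 0.0728% after Wy14643, and their confidence intervals ran from −0.11 to 0.34. In WT hearts Dbt averaged 8.34 ± 0.18 after triolein (n = 4), 8.61 ± 0.05 after trilinolein (n = 5), 8.65 ± 0.12 after trilinolenin (n = 4), 8.52 ± 0.07 after tridocosahexaenoin (n = 5) and 8.32 ± 0.06 after Wy14643 (n = 4), against 8.45 ± 0.18 after the control gavage (SD, n = 3). The WT differences after trilinolein, 0.16 ± 0.10, and after trilinolenin, 0.20 ± 0.11, were not called (adjusted p = 0.544 and 0.354). The difference between the genotypes in the Dbt response was 0.19 ± 0.13 for trilinolein and 0.16 ± 0.14 for trilinolenin, and neither was called.

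**Figure D3:**
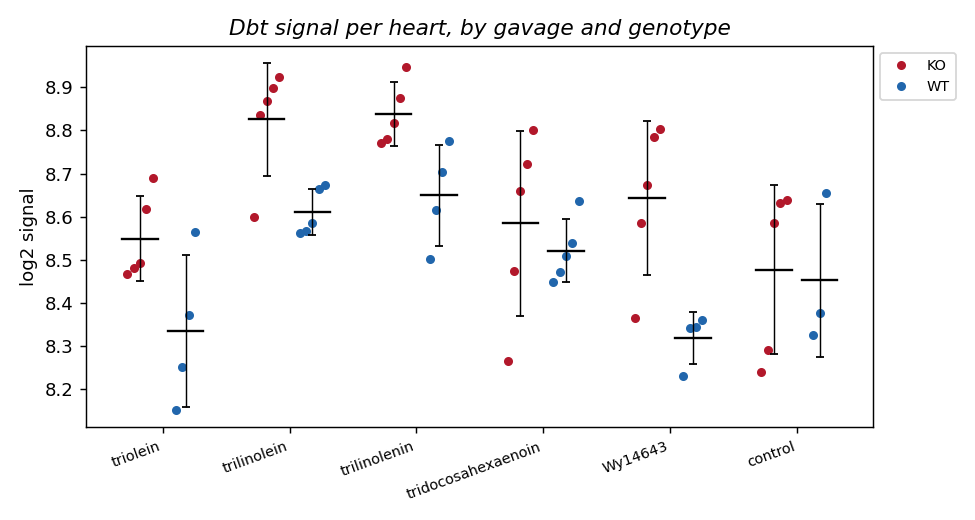
Log2 signal of Dbt in every heart by gavage, with KO hearts left of WT hearts for each gavage; each point is 1 heart and each line a group mean. The KO hearts given trilinolenin, between 8.77 and 8.95, all lie above the KO control hearts, between 8.24 and 8.64.

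In WT hearts 0 of 8 members were called after any of the 5 gavages by limma. At an unadjusted p under 0.05, 1 member was found after triolein, 3 after trilinolein, 2 after trilinolenin, 2 after tridocosahexaenoin and 1 after Wy14643, of 8 each time. At that same level stood 6.4% of all tested genes after triolein, 12.6% after trilinolein, 16.7% after trilinolenin, 14.8% after tridocosahexaenoin and 7.45% after Wy14643. The share of all tested genes called after adjustment was 0.0728% after triolein, 1.25% after trilinolein, 3.41% after trilinolenin, 1.86% after tridocosahexaenoin and 0.0607% after Wy14643. The 5 comparisons share 3 WT control hearts. The kinase Bckdk came nearest. It had 8.19, 8.24, 8.27, 8.22 and 8.31 in WT hearts given trilinolein, against 8.02, 8.13 and 7.87 in WT control hearts, without overlap, as in 10.9% of tested genes, a difference of 0.24 ± 0.07 (adjusted p = 0.0653). After trilinolenin Bckdk differed by 0.21 ± 0.07 (adjusted p = 0.105) and after triolein by 0.18 ± 0.07 (adjusted p = 0.679). In KO hearts the Bckdk difference was 0.03 after trilinolein, 0.03 after trilinolenin and −0.07 after triolein.

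Whether the response to a gavage differed between genotypes was tested as an interaction. By limma 0 of 8 members and 0 of 8237 genes were called for any of the 5 gavages, while between 255 and 399 genes had an unadjusted p under 0.05. The member with the smallest unadjusted p was Bckdk, whose triolein response was lower in KO hearts by −0.25 ± 0.09 (unadjusted p = 0.0096, adjusted p = 0.883). The Dbt response to Wy14643 was 0.30 ± 0.14 higher in KO hearts (unadjusted p = 0.036, adjusted p = 1).

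The agonist itself moved no member past the threshold, which was so for nearly all tested genes. Of these 0.0607% were called after Wy14643 in WT hearts and 0.0728% in KO hearts. In WT hearts, which carry the receptor, the 95% confidence intervals of the 8 log2 differences between Wy14643 and the control gavage lay within −0.38 to 0.26, and in KO hearts within −0.19 to 0.34. Ppm1k was the member with the largest difference in WT hearts. It had 8.84, 8.86, 8.72 and 8.85 after Wy14643, against 9.14, 9.02 and 8.90 after the control gavage. The groups did not overlap, as in 7.71% of tested genes, and the difference was −0.20 ± 0.09 (adjusted p = 0.619). Bcat2 and Bckdhb, whose genotype differences were the largest, differed by 0.02 ± 0.07 and −0.13 ± 0.07 after Wy14643 in WT hearts (adjusted p = 0.974 and 0.692).

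**Figure D4:**
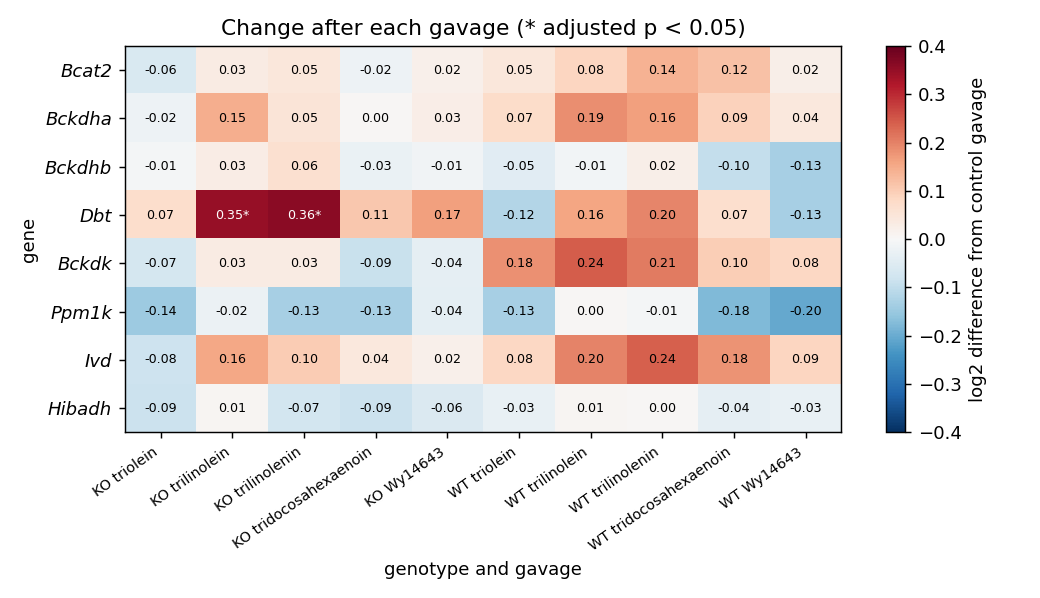
Log2 difference from the control gavage of the same genotype for each of the 8 genes after each of 5 gavages, in KO hearts (left) and WT hearts (right); an asterisk marks an adjusted p under 0.05. Dbt after trilinolein (0.35) and after trilinolenin (0.36) in KO hearts are the only marked differences.

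The 4 oils were compared with each other at the same volume and time, as 6 pairs that share groups, with the KO and WT differences weighted equally. Dbt was higher after trilinolein than after triolein by 0.28 ± 0.06 (adjusted p = 0.0129), and higher after trilinolenin than after triolein by 0.30 ± 0.07 (adjusted p = 0.00355). Linoleic and linolenic acid differ from oleic acid, at the same chain length, by additional double bonds. In each of these pairs 1 of 8 members was called, where 1.92% of tested genes were called for trilinolein over triolein and 6.05% for trilinolenin over triolein. The trilinolein call was lost without WT triolein replicate 2 (adjusted p = 0.0571). Ivd came near in both pairs, at 0.18 ± 0.05 (adjusted p = 0.0707) and 0.17 ± 0.05 (adjusted p = 0.0535). All 8 members had a difference above 0 in both pairs, beside 55% of tested genes for trilinolein and 46.5% for trilinolenin.

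The Dbt values of single hearts show where the pairs overlap within each genotype. In KO hearts Dbt lay between 8.60 and 8.92 after trilinolein and between 8.77 and 8.95 after trilinolenin, against 8.47 to 8.69 after triolein. In WT hearts it lay between 8.56 and 8.67 after trilinolein and between 8.50 and 8.78 after trilinolenin, against 8.15 to 8.56 after triolein. The KO trilinolenin hearts all lay above the KO triolein hearts, and the other pairs of groups overlapped, WT trilinolein and WT triolein only at their edges.

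Trilinolenin and trilinolein were not told apart in any member. The 95% confidence intervals of the 8 differences lay within −0.18 to 0.16 on the log2 scale. No gene at all was called in this pair by limma, while 445 had an unadjusted p under 0.05. Tridocosahexaenoin, with the longer and more unsaturated chain, gave 0 of 8 calls against each of the other oils. Against trilinolenin Dbt differed by −0.19 ± 0.06 (adjusted p = 0.0988) and against trilinolein by −0.17 ± 0.06 (adjusted p = 0.136). Against triolein the Dbt difference was 0.11 ± 0.06, with an interval of −0.02 to 0.24. The share of tested genes called was 3.01% against trilinolenin, 3.48% against trilinolein and 0.789% against triolein. All 8 members were below 0 for tridocosahexaenoin against trilinolein and against trilinolenin, where 42.9% and 51.7% of tested genes were above 0.

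Around the 8 genes, other enzymes of the same routes moved in either direction between genotypes. Of 28 further genes of the pathway, its transport and its regulators, 27 had a probe set and 23 were tested. Averaged over the gavages 8 were higher and 3 were lower in KO hearts, with a median of 0.04, beside the 39% called over all genes. On the leucine route Mccc1, a subunit of methylcrotonyl-CoA carboxylase, was 0.34 ± 0.03 higher in KO hearts (adjusted p = 9.75e-13), 1 of 3 tested genes. On the isoleucine route Acadsb, a short branched-chain acyl-CoA dehydrogenase, was 0.26 ± 0.03 higher (adjusted p = 1.73e-10), while the thiolase Acat1, which also serves ketone bodies and fatty acid oxidation, was lower by −0.40 ± 0.03 (adjusted p = 4.42e-15).

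On the valine route 1 of 4 tested genes was called. This was Abat, better known for breaking down GABA, which averaged 5.82 in KO hearts and 4.42 in WT hearts, a difference of 1.39 ± 0.11 (adjusted p = 1.15e-14). The mean of Abat was under the minimum in 2 groups, so the size is uncertain. Among the 6 shared and propionyl-CoA genes, Pccb (0.09 ± 0.02) and Mmut (0.10 ± 0.02) were higher in KO hearts and Pcca was lower by −0.13 ± 0.03. Pcca and Pccb encode the subunits of propionyl-CoA carboxylase, and Mmut encodes methylmalonyl-CoA mutase. None of 3 transport genes was called on the average. In single gavages the mitochondrial carrier Slc25a44 was higher in KO hearts after tridocosahexaenoin, by 0.47 ± 0.15 (adjusted p = 0.0335). Its mean over all gavages was 4.91 in KO and 4.77 in WT hearts, near the minimum of 4.322 on the log2 scale, so this size is uncertain. Slc3a2, the heavy chain of cell-surface amino acid transporters, was lower in KO hearts after Wy14643, by −0.29 ± 0.10 (adjusted p = 0.0467). In KO hearts Slc3a2 was 0.37 ± 0.09 higher after tridocosahexaenoin than after the control gavage (adjusted p = 0.0153). Between oils Slc3a2 was called for tridocosahexaenoin over triolein, by 0.31 ± 0.07. Slc43a2, whose group means were under the minimum in 11 of 12 groups, was called for trilinolein over triolein (0.41 ± 0.11), trilinolenin over triolein (0.67 ± 0.12) and tridocosahexaenoin over trilinolenin (−0.43 ± 0.11), so these sizes are uncertain. The list of 4 regulators contains Ppara itself, and the other 3 were higher in KO hearts: Ppargc1a by 0.40 ± 0.07, Mlxipl by 0.45 ± 0.10 and Klf15 by 0.21 ± 0.08. Klf15, a transcription factor that induces branched-chain amino acid enzymes in muscle and liver, was the only regulator called after an oil against the control gavage. In KO hearts it rose by 0.65 ± 0.19 after trilinolein (adjusted p = 0.0368), 0.85 ± 0.19 after trilinolenin (adjusted p = 0.00163) and 0.72 ± 0.19 after tridocosahexaenoin (adjusted p = 0.0237). In WT hearts Klf15 rose by 0.80 ± 0.22 after tridocosahexaenoin (adjusted p = 0.0412), the only called pathway gene there. Between oils, 1 of the 4 regulators was called lower for trilinolein over triolein. For tridocosahexaenoin 2 of the 4 were called higher over trilinolein and 2 over trilinolenin.

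**Figure D5:**
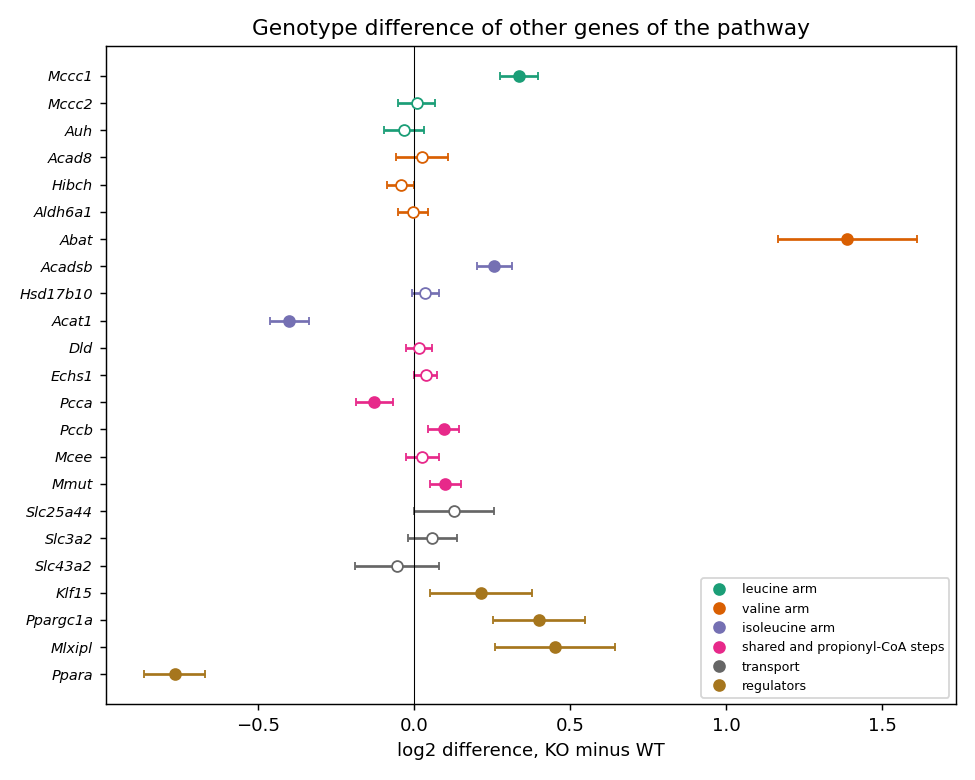
KO minus WT difference on the log2 scale, averaged over 6 gavages, with 95% confidence intervals, for the 23 other tested genes grouped by route. Filled points passed the test. Mccc1 (0.34) and Acadsb (0.26) lie above 0 and Acat1 (−0.40) below.

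Across the 12 group means, the gene most like Bckdhb was Gstm2 (Pearson r = 0.982), followed by Prps2 (0.981). Both genes of any such pair were measured on the same arrays. The gene most like Bcat2 was Tnip1 (0.976), followed by Gsta4 (0.972). Bckdhb and Bcat2 correlated with each other at 0.941. For Dbt the nearest genes were Rnf113a2 (0.945) and Cyp27a1 (0.943), for Bckdha Cry2 (0.946) and Hlf (0.944), and for Ivd Cry2 (0.948) and Bckdha (0.93). Those for Bckdk were Rab11b (0.886) and Castor2 (0.875), for Ppm1k Nudt13 (0.923) and Zfp46 (0.909), and for Hibadh Rgma (0.899) and Acad8 (0.898). These are descriptions of 12 points each, chosen as the highest of 8237 genes.

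Some markers in lists for several cell types also moved with the genotype, beside the differences in Bcat2 and Bckdhb. Of 4 macrophage markers 3 were higher in KO hearts, and their sum was between 458.6 and 734 in KO hearts and between 462 and 679.1 in WT hearts on the linear scale. Of 2 tested adipocyte markers Fabp4 was higher by 0.45 and Cidea was lower by −0.77, and Ucp1 and Adipoq were too dim to be tested. The sums of all 4 measured were 11520 to 18120 in KO hearts and 8085 to 12030 in WT hearts. Because the 2 tested markers went in opposite directions, a difference in adipocyte content cannot be read from this list. Of 5 fibroblast markers 2 were lower, with sums of 4662 to 5725 in KO hearts and 4861 to 6657 in WT hearts. Of 5 endothelial markers 1 was higher and 1 lower, with sums of 1040 to 1362 in KO hearts and 1019 to 1314 in WT hearts. Of 4 smooth muscle markers 1 was higher, with sums of 959.7 to 2248 in KO hearts and 956 to 1879 in WT hearts. After trilinolenin, where Bcat2 and Bckdhb were also called, all 4 smooth muscle markers were higher, by a median of 0.90, with sums of 1430 to 2248 in KO hearts and 1041 to 1426 in WT hearts. None of the 4 was called after any of the other 5 gavages. The skeletal muscle actin Acta1 was lower by −1.87, 1 of 2 tested skeletal muscle markers. The other, Ckm, was not called, at 0.01 ± 0.02 (adjusted p = 0.642), and Myh4, Myh1 and Myh2 were too dim. A difference in skeletal muscle content therefore cannot be read from this list. The skeletal muscle sums were 5820 to 8271 in KO hearts and 8134 to 10950 in WT hearts. None of 4 atrial markers was called, with sums of 5080 to 19660 in KO hearts and 4737 to 16790 in WT hearts, and 1 of 7 cardiomyocyte markers, Ryr2, was 0.11 higher. The part of these differences in the results for the 8 genes was not tested.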

How the data were processed

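Hearts of 55 male mice were profiled on Affymetrix GeneChips, and the deposited values are log2 signals made by the authors with GCRMA 2.2.0, per the submitters' processing notes. Such signals are background-corrected, normalised by quantiles and summarised per probe set, so a shift of all genes would be removed. The values were used as deposited, and no depth applies to arrays, whose number limits the precision. Of 45101 probe sets, 34958 carried 1 symbol, 932 several and 9211 none, and 64 control probe sets were left out.

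A gene was taken as its probe set of highest mean and tested if above 20 (linear) in at least 3 arrays, which 8237 of 18193 genes were. The 12 group means of each gene were estimated together by limma 3.58.1 under R 4.3.3; 43 degrees of freedom came from the residuals and 3.255 from the prior. Each of 28 comparisons was a contrast of these means. Benjamini-Hochberg adjustment ran over all tested genes of a comparison, with a threshold of 0.05. The procedure was tested on simulated data.

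The text names all 8 genes, called genes of the pathway and marker lists, and the 2 genes nearest to each member over 12 group means. These genes and lists were chosen with earlier results of these data known. Alternatives were no filter, a filter at 100, the mean of all probe sets, quantile normalisation again, a trended and robust prior, a replicate block, array weights, a fit of only the groups compared, and each array left out. Leaving out 3 arrays, those weighted below 0.5, was an alternative chosen after the data were seen. Promoters came from RefSeq.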

Additional observations from a re-analysis of the deposited data

Results flagged for a closer look

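Within groups of 4 or 5 hearts, 8 of 88 sets of member values held a heart far from the others of its group, measured as its gap to the nearest heart over the range of the group. Chance marks about 1 in 20 such sets. Dbt, which rose after trilinolein in KO hearts, was 8.60016 in KO trilinolein replicate 3, against 8.84 to 8.92 in the other hearts of that group. Dbt was also low in WT Wy14643 replicate 4, at 8.23027, against 8.34 to 8.36, and the genotype call after Wy14643 was lost without that heart.

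The transcript of the decarboxylase beta subunit, Bckdhb, was 9.93272 in WT trilinolenin replicate 2, against 9.75 to 9.76 in the other hearts of that group, and this heart set the upper edge of the WT values. In WT trilinolein replicate 1 it was 9.68661, against 9.77 to 9.80. The kinase Bckdk was 8.15939 in KO tridocosahexaenoin replicate 4, against 7.98 to 8.01, and 8.29685 in KO trilinolenin replicate 2, against 8.10 to 8.13. The phosphatase Ppm1k was 8.89044 in WT trilinolein replicate 1, against 9.04 to 9.08, and 8.72213 in WT Wy14643 replicate 3, against 8.84 to 8.86. No cause was tested for any of these hearts.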

How the results depend on the processing

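No called difference changed its sign under any alternative run. Averaged over the gavages, the KO against WT count of 5 called members was 3 with the mean of all probe sets and 3 without the 3 arrays of lowest weight. It was 4 without a filter, and 4 to 5 with each array left out. The count in KO against WT hearts of 2 became 0 for the control gavage, 1 for triolein, 1 for trilinolenin and 1 for tridocosahexaenoin in a fit of only the groups compared, which has fewer hearts. That fit also lowered the Wy14643 count from 3 to 2, through Dbt. The count of 2 was 1 for triolein and for tridocosahexaenoin without a filter. For tridocosahexaenoin it was also 1 with quantile normalisation again, with array weights and without the 3 arrays of lowest weight. The losses without a filter and in these 3 alternatives were through Bcat2. For trilinolenin it became 3, through Ppm1k, with a filter at 100, quantile normalisation again, a trended prior or array weights. With each array left out it was 0 to 2 for control, 1 to 2 for triolein, 1 to 3 for trilinolenin, 1 to 2 for tridocosahexaenoin and 2 to 3 for Wy14643. For WT trilinolein the count of 0 became 1, through Bckdk, with a filter at 100, quantile normalisation again or array weights. For KO trilinolein the count of 1 became 0 in a fit of only the groups compared, and was 0 to 1 with each array left out. For trilinolein over triolein it became 2, through Ivd, with the mean of all probe sets, a trended prior, array weights or only the groups compared, and was 0 to 1 with each array left out. For trilinolenin over triolein it became 2, through Ivd, with a filter at 100, the mean of all probe sets or a trended prior, and was 1 to 2 with each array left out. Tridocosahexaenoin against trilinolein and against trilinolenin gave 0 to 1. The cause of these changes was not tested for any alternative. The replicate block left all 28 counts as they were, 5 of 8 for the average over gavages included. Among 281 pairs of arrays with the same number in different groups the mean correlation was 0.0099 (−0.29 to 0.371), with 22.1% over 0.1. Among 1103 pairs with different numbers it was −0.00244 (−0.373 to 0.396), with 18.9% over 0.1. These are not correlations of the deposited signals, which lay between 0.9882 and 0.9964 for any 2 arrays. The labels do not say what the numbers stand for. The array with the lowest weight had 0.472.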
